A study of Sus scrofa with 24 samples.

Results

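The mitochondrial respiratory chain and ATP synthase were followed through 28 nuclear genes for their subunits, in a pig model of the arteriovenous graft used for haemodialysis, a tube that joins an artery to a vein. They were taken by symbol: every array probe other than a control whose gene name began with NDUFA, NDUFB, NDUFC, NDUFS or NDUFV, COX followed by a numeral from 4 to 8, ATP5, UQCR or SDH with the letter A, B, C or D. That rule found 45 probes for 28 symbols, and the brightest probe stood for each symbol. The 28 genes were part of 33556 features tested (a feature is a gene symbol, or a probe with no symbol), from 43603 probes in all. By complex they were 7 genes of complex I, 3 of complex II, 2 of complex III, 7 of complex IV and 7 of ATP synthase, plus NDUFA4 and its relative NDUFA4L2.

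The 24 samples were total RNA from pig vein in 6 groups of 4, numbered replicates 1 to 4 in each. The external jugular vein served as control, and the grafted sites were the venous anastomosis, which is the junction with the graft, and the vein segment downstream of it. Each site was sampled at day 5 and at day 14 after the graft was placed. The labels call the replicates biological and give no strain, sex, age or treatment beyond the graft; they do not tie the 3 sites of a number to 1 animal, although the scanner files of a number and day carry a common pig number in their names. Each control sample was labelled with Cy3 and shared its array with the like-numbered anastomosis sample of that day, labelled with Cy5. Each downstream sample was labelled with Cy5 on another array, so in every comparison with the control the site and the dye cannot be told apart. The anastomosis and the downstream vein carried the same dye, as did the 2 days of a site.

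The respiratory chain lies in the inner mitochondrial membrane. Complexes I and II pass electrons from NADH and succinate to ubiquinone, complex III passes them on to cytochrome c, and complex IV (cytochrome c oxidase) hands them to oxygen; complexes I, III and IV pump protons, and ATP synthase makes ATP as the protons flow back. Some subunits come in a pair of forms, one typical of heart and skeletal muscle and one found in most tissues. Vascular smooth muscle, the main cell of the vein's medial layer, uses this system beside glycolysis.

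Closely related genes are compared below, so stretches of their probes are shown. They are those of the 7 genes that passed the test in any comparison, and of COX7A2, the partner form of COX7A1. Each is 30 bases of a longer probe as deposited with the arrays, 5′ to 3′, and capitals mark the hexamer AATAAA, the usual signal for polyadenylation, where the stretch holds it.
COX7A1: tcaacaagcatcAATAAAtgttctggcttc
COX7A2: ctaactgccaccAATAAAgcatctttacca
NDUFA4: ctataaagctgcttagaatgaaggtcttcc
NDUFA4L2: tgtcccccgggatcaaacagaagcagccgt
ATP5A1: tgactgccttaaAATAAAggttccataatg
ATP5G1: tttgatggtcgccttccttatcctcttcgc
COX6B: ggtttaactaatAATAAAtactcactggaa
SDHD: gttgttgttttcctgctgtgggatctctaa
The whole probes of NDUFA4 and NDUFA4L2 had no identical stretch longer than 7 bases, nor had those of COX7A1 and COX7A2, and those of ATP5G1 and ATP5G2 had none longer than 5 bases. Probes of 1 gene can share as little: both NDUFA4 probes had no identical stretch longer than 5 bases. No probe was compared with the transcript of the related gene, so whether such genes were measured apart was not tested. AATAAA was found in the chosen probes of 14 of the 28 genes (50%) and in 12.1% of all 43603 probes. Its reverse complement was found in 1 of the 28 (3.57%) and in 4.63% of all probes. The motif is a match of letters in the probe and not a mapped site. The position of the probes in the pig genome was not analysed here.

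Between 56.9% and 80.2% of probes were well above background in a sample, and the number of arrays limits the precision. The members' probes were bright: 22 of the 28 lay above the 95th percentile of mean signal, and each had a value in 24 of 24 samples, with no saturated spot. All were well above background throughout except COX8H, the heart and muscle form of another complex IV subunit, which was so in 12 of the 24 samples. Levels below are normalised log2 intensities, differences are on the same log2 scale with the standard error (SE) of the fit, and the threshold is an adjusted p of 0.05 from limma with Benjamini-Hochberg adjustment over all 33556 features. The fit pooled all 24 samples and kept the replicate number within a day as a block. Levels of different genes were read from different probes and are not compared. Each sample was a mixture of cells, so fewer cells of a type and less RNA per cell cannot be told apart.

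At the anastomosis on day 5, with the arrays scaled by loess, some members were higher than the control and others lower. COX7A1, the heart and muscle form of a complex IV subunit, had the largest difference, 3.06-fold lower than in the jugular control. NDUFA4 and SDHD were also lower, while NDUFA4L2 was 2.84-fold higher and ATP5A1, ATP5G1 and COX6B were between 1.5-fold and 1.77-fold higher. The count was 7 of 28 members past the threshold (25%), 4 higher and 3 lower. The background in the same comparison was 19.4% of all features (9.08% higher and 10.3% lower) and 29.7% of the 5642 features with a gene symbol, so the share of changed members was near that of other named genes. The median difference of the 28 was 0.10, beside 0.003 over all features and 0.06 over named features. The split into higher and lower depended on the scaling. Quantile scaling of the single channels, with no loess, called 9 members higher and 2 lower, and the authors' own values 3 higher and 3 lower. Under median centring 26 of the 28 differences were positive, with a median of 1.02, and 24 members were called higher and 0 lower.

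**Figure D1:**
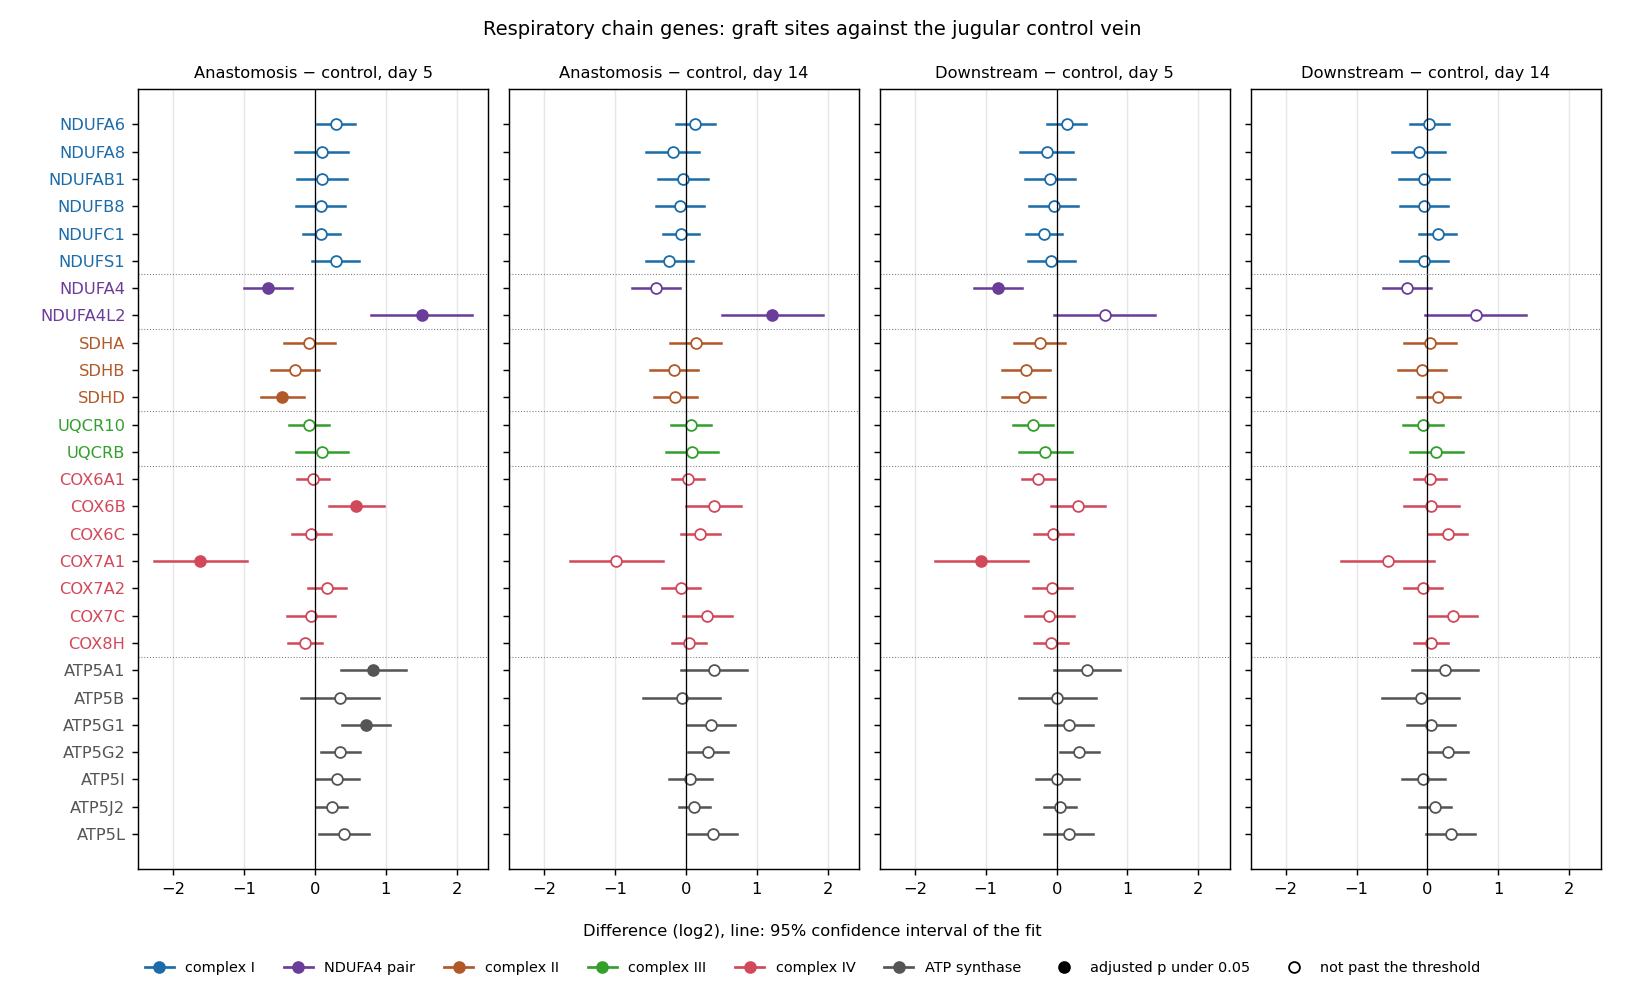
Difference of each graft site from the jugular control (horizontal axis, log2) for the genes reported here (vertical axis, coloured by complex), 1 panel per site and day. Points are fitted differences over 4 samples a group, lines their 95% confidence intervals, and filled points have an adjusted p under 0.05: 7 at the anastomosis on day 5, 1 on day 14, 2 downstream on day 5 and 0 on day 14. Under median centring of the arrays the members' median lies higher in each panel, and on day 5 the values of NDUFA4 and SDHD at the anastomosis and of NDUFA4 downstream change sign.

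In complex IV, COX7A1 stood at 13.33, 13.08, 13.91 and 13.73 in control replicates 1 to 4 on day 5 and at 11.78, 11.58, 12.14 and 12.09 at the anastomosis. Every anastomosis sample lay below every control sample. The difference was −1.61 ± 0.31 (SE, n = 4 and 4, adjusted p = 0.00273), with −1.55, −1.49, −1.78 and −1.64 in the 4 replicate pairs. Its partner COX7A2, the form found in most tissues, stood at 13.49, 13.45, 13.57 and 13.41 in the control and at 13.65, 13.47, 13.65 and 13.82 at the anastomosis. The COX7A2 groups overlapped, and the difference of 0.17 had a 95% interval from −0.10 to 0.44 (adjusted p = 0.422). Within the pairs, the difference of COX7A1 lay below that of COX7A2 by −1.78 ± 0.23 (mean ± SD, n = 4 pairs). A shift common to bright probes cancels in that gap, which was −1.89 ± 0.21 under median centring. The other COX7A1 probes gave −1.46 and −1.51, though they share 46 and 31 bases with the chosen one and are no independent measurement.

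COX6B, a subunit of complex IV that faces the intermembrane space, stood at 13.20, 13.58, 14.00 and 13.74 in the control on day 5 and at 14.01, 14.02, 14.38 and 14.45 at the anastomosis. The anastomosis samples all lay above the control samples, the nearest only just, and all 4 pairs were higher. The difference was 0.59 ± 0.18 (adjusted p = 0.0335). The other COX6B probes, which share at most 16 bases with the chosen one, gave 0.77 and 1.17. Of the remaining subunits of complex IV, COX6A1, COX6C, COX7C and COX8H lay between −0.13 and −0.02 and did not pass. The interval of COX6A1, the form of its subunit found in most tissues, ran from −0.25 to 0.20.

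NDUFA4 was named as a complex I protein and is now placed in complex IV, and NDUFA4L2 is a related gene known to be induced in low oxygen. NDUFA4 stood at 13.83, 14.13, 15.41 and 14.80 in the control on day 5 and at 13.24, 13.34, 14.58 and 14.36 at the anastomosis. The groups overlapped because replicates 3 and 4 were higher than 1 and 2 at both sites, yet each pair was lower. The NDUFA4 difference was −0.66 ± 0.16 (adjusted p = 0.0101), and a second probe that shares at most 5 bases gave −0.57 (adjusted p = 0.046); under median centring the sign turned, to 0.39. NDUFA4L2 stood at 9.43, 9.68, 10.39 and 10.16 in the control and at 11.48, 11.66, 11.39 and 11.16 at the anastomosis. Every anastomosis sample exceeded every control sample. The difference was 1.51 ± 0.33 (95% interval 0.80 to 2.22, adjusted p = 0.00635), with 2.05 and 1.98 in pairs 1 and 2 and 1.00 and 1.01 in pairs 3 and 4. NDUFA4L2 lay above NDUFA4 in this difference by 2.17 ± 0.63 (mean ± SD, n = 4 pairs), and by 1.75 ± 0.69 under median centring.

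All 7 ATP synthase genes found by the symbol rule had a positive difference at the anastomosis on day 5, with a median of 0.36, and 2 passed the threshold. ATP5H and ATP5O, subunits that the rule did not reach, are not among these genes. They gave 0.04 ± 0.16 (adjusted p = 0.915) and −0.07 ± 0.16 (adjusted p = 0.843). ATP5A1, the alpha subunit of the catalytic head, stood at 14.31, 14.88, 14.49 and 14.24 in the control and at 15.42, 15.52, 15.15 and 15.15 at the anastomosis. The groups did not overlap, and the difference was 0.83 ± 0.22 (adjusted p = 0.0159). ATP5G1, one of the genes for the c-ring that turns in the membrane, stood at 13.15, 13.86, 14.16 and 13.74 in the control and at 14.22, 14.45, 14.61 and 14.50 at the anastomosis. These groups did not overlap either, and the difference was 0.72 ± 0.16 (adjusted p = 0.00652). ATP5G2, another c-ring gene, gave 0.36 ± 0.13 (adjusted p = 0.0663), and the gap between both c-ring genes was 0.36 ± 0.26 (mean ± SD, n = 4 pairs). ATP5B, the beta subunit that holds the catalytic sites, gave 0.36 ± 0.25 with an interval from −0.19 to 0.90 (adjusted p = 0.394). ATP5I, ATP5J2 and ATP5L, small subunits of the membrane part, lay between 0.24 and 0.41 and did not pass; the ATP5I samples of the anastomosis nonetheless all lay above those of the control.

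Complex II, which is also succinate dehydrogenase of the citrate cycle, had negative differences for all 3 measured genes and a median of −0.28 on day 5. SDHD, a membrane anchor of the complex, stood at 14.27, 14.78, 14.13 and 13.43 in the control and at 13.78, 14.07, 13.58 and 13.34 at the anastomosis. The groups overlapped, all 4 pairs were lower, and pair 4 was lower by the least. The SDHD difference was −0.46 ± 0.14 (adjusted p = 0.0349); it turned to 0.55 under median centring, and its adjusted p was between 0.0627 and 0.127 when any 1 replicate was left out. SDHB, the iron-sulphur subunit, gave −0.28 ± 0.16 (adjusted p = 0.259), and SDHA, the flavoprotein, gave −0.08 with an interval from −0.44 to 0.28 (adjusted p = 0.820). Across 6 scalings of the arrays the complex II median lay between 0.30 and 0.44 below the median of the 28 genes, although its own sign turned under median centring.

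Complex I showed small positive differences for all 7 genes found by the symbol rule on day 5, with a median of 0.10, and none passed. NDUFB2 and NDUFA5, which the rule did not reach, are given further below. NDUFS1, an iron-sulphur core subunit, stood at 8.27, 8.76, 8.89 and 8.92 in the control and at 9.08, 8.94, 8.86 and 9.14 at the anastomosis. The groups overlapped, replicate 1 moved most, and the difference was 0.29 ± 0.16 (adjusted p = 0.226). In complex III, UQCRB gave 0.10 and UQCR10 gave −0.09, and neither passed.

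The anastomosis and control samples did not overlap on day 5 for 5 members that were higher and 1 that was lower, beside 6.75% and 8.03% of all features. All 4 pairs were higher for 13 members and lower for 5, beside 22.7% and 23.6% of features. At an unadjusted p under 0.05 there were 12 members, beside 31.1% of features. When 1 replicate was left out, COX7A1 and ATP5G1 kept an adjusted p under 0.05 in each of the 4 fits. NDUFA4L2 did not without replicate 2 (1.35, adjusted p = 0.0533), NDUFA4 did not without replicate 3 (−0.61, 0.0582) or 4 (−0.73, 0.0501), and ATP5A1 did not without replicate 1 (0.73, 0.0919) or 4 (0.80, 0.111). COX6B did not without replicate 1 (0.51, 0.0916), 3 (0.65, 0.0970) or 4 (0.55, 0.175). Without the replicate block the adjusted p was 0.0892 for ATP5G1, 0.198 for COX6B, 0.51 for NDUFA4 and 0.427 for SDHD. Over 16 other settings COX7A1 and NDUFA4L2 kept the call in 14 each, ATP5A1 and ATP5G1 in 13 each, NDUFA4 in 11, COX6B in 9 and SDHD in 6.

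**Figure D2:**
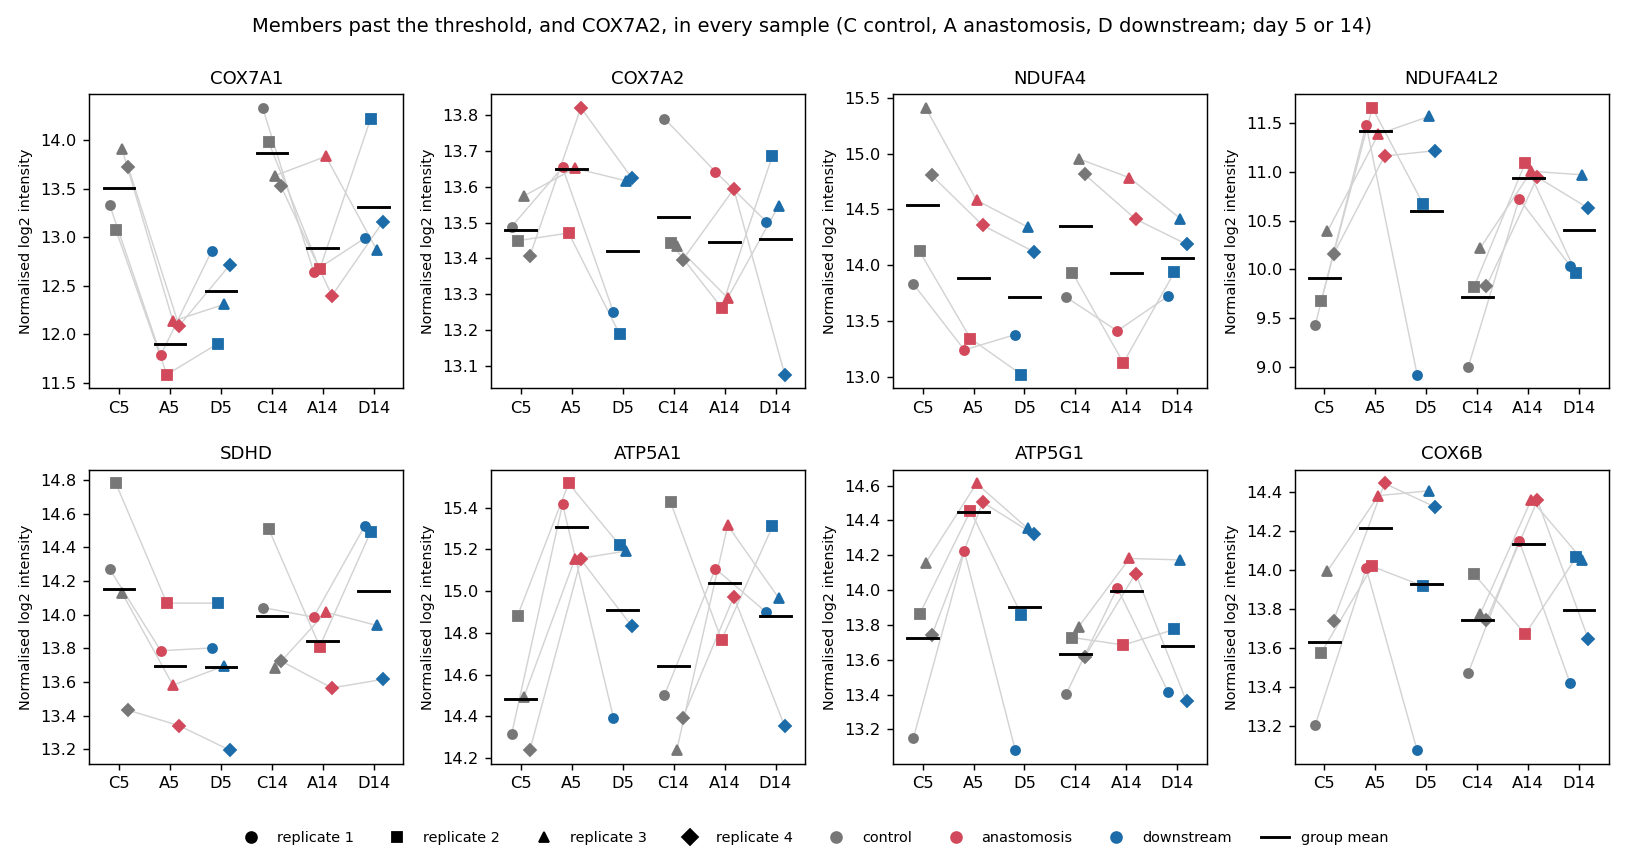
Normalised log2 intensity (vertical axis) of the 7 genes past the threshold in any comparison, and of COX7A2, in each of the 24 samples (horizontal axis: control, anastomosis and downstream, day 5 then day 14). Symbols mark the replicate number, grey lines join samples of a number and day, and bars are means of 4 samples; COX7A1 at the anastomosis on day 5 lies between 11.58 and 12.14, below every control sample, while COX7A2 overlaps. Under median centring the lower NDUFA4 and SDHD values turn.

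By day 14 the anastomosis differed from the control past the threshold for 1 of the 28 genes (3.57%), beside 8.84% of all features, of which 4.79% were higher and 4.05% lower. NDUFA4L2 stood at 9.0, 9.82, 10.22 and 9.83 in the control and at 10.72, 11.09, 11.01 and 10.95 at the anastomosis. The groups did not overlap, as for 3.16% of all features in that direction and 2.95% in the other, and each pair was higher. The difference was 1.22 ± 0.33, or 2.34-fold (adjusted p = 0.0352). Its adjusted p was 0.0989 without replicate 2, 0.0683 without replicate 3 and 0.180 without replicate 4, with differences of 1.21, 1.37 and 1.26, and 0.141 without the replicate block. NDUFA4 gave −0.42 ± 0.16 (adjusted p = 0.114), and the gap between both genes was 1.64 ± 0.52 (mean ± SD, n = 4 pairs).

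COX7A1 on day 14 stood at 14.34, 13.98, 13.64 and 13.53 in the control and at 12.64, 12.67, 13.83 and 12.40 at the anastomosis. Replicates 1, 2 and 4 were lower at the anastomosis, and replicate 3 was slightly higher there, so the groups overlapped. The difference was −0.98 ± 0.31 (adjusted p = 0.0600). Without the day 14 anastomosis sample of replicate 3, chosen after seeing the data, it was −1.41 ± 0.24 (adjusted p = 0.00359). Without replicate 3 altogether it was −1.38 (adjusted p = 0.0165). It was −0.75 without replicate 1 (0.248), −0.87 without 2 (0.131) and −0.93 without 4 (0.309). The anastomosis sample of replicate 3 also stood apart in 8 genes typical of fat cells. Their mean level was 14.11 in it and between 9.50 and 10.43 in the other 3 anastomosis samples of day 14. The part of these genes in the COX7A1 result was not tested.

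Over the 28 genes the median difference on day 14 was 0.06, and 7 members had an unadjusted p under 0.05, beside 24.9% of features. All 4 pairs were higher for 1 member and lower for 1, beside 15.4% and 12.9% of features. ATP5A1 gave 0.40 ± 0.22 (adjusted p = 0.274), ATP5G1 0.36 ± 0.16 (0.179), ATP5G2 0.31 ± 0.13 (0.145) and COX6B 0.39 ± 0.18 (0.189). Without replicate 2, whose pair ran the other way for ATP5A1, ATP5A1 gave 0.75 (adjusted p = 0.0345) and COX6B 0.63 (adjusted p = 0.0434). Without replicate 1, 3 or 4 the adjusted p was 0.516, 0.755 and 0.616 for ATP5A1. For COX6B it was then 0.382, 0.477 and 0.549. ATP5B gave −0.06, COX7A2 −0.07, COX6A1 0.03, NDUFS1 −0.23, SDHA 0.14, SDHB −0.17 and SDHD −0.15, none past the threshold. The control sample of replicate 2 stood apart here. Its mean level over the fat cell genes was 14.52, beside 8.32 to 9.97 in the other 3, and over 6 smooth muscle genes 12.21, beside 14.56 to 15.30. With that sample left out, NDUFA4L2 gave 1.31 ± 0.38 (adjusted p = 0.0442) and COX7A1 −1.06 ± 0.35 (adjusted p = 0.0695).

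Downstream of the anastomosis on day 5, 2 of the 28 genes (7.14%) were lower than in the control and none was higher, beside 5.01% of all features lower, 3.22% higher and 8.22% in either direction. Both comparisons of day 5 share the control samples, as do those of day 14. COX7A1 stood at 12.86, 11.90, 12.31 and 12.72 downstream, below all 4 control samples given above. The difference was −1.06 ± 0.31, or 2.09-fold lower (adjusted p = 0.0463), and the other COX7A1 probes gave −0.94 (0.0556) and −0.89 (0.0805). Its partner COX7A2 gave −0.06 with an interval from −0.33 to 0.21. NDUFA4 stood at 13.38, 13.02, 14.34 and 14.12 downstream, with each pair lower and the groups overlapping. The NDUFA4 difference was −0.83 ± 0.16, or 1.77-fold lower (adjusted p = 0.0107), but 0.08 under median centring, and its second probe gave −0.62 (adjusted p = 0.0572). Neither call held in every fit that left out 1 replicate: COX7A1 gave −1.03 without replicate 2 (adjusted p = 0.136), −0.89 without 3 (0.137) and −1.08 without 4 (0.229), and NDUFA4 gave −0.73 (0.0512), −0.75 (0.104) and −0.87 (0.120). Without the replicate block the adjusted p was 0.115 for COX7A1 and 0.493 for NDUFA4. Over 16 other settings COX7A1 kept the call in 5 and NDUFA4 in 10.

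NDUFA4L2 stood at 8.92, 10.67, 11.57 and 11.22 downstream on day 5. Replicates 2 to 4 exceeded their controls and replicate 1 lay below its own. The difference was 0.68 ± 0.33 (adjusted p = 0.221), and 1.08 without replicate 1 (adjusted p = 0.0183). Without replicate 2, 3 or 4 it was 0.58, 0.51 and 0.55 (adjusted p = 0.486, 0.566 and 0.539). In the same replicate 1 the 6 smooth muscle genes had a mean level of 14.28, beside 12.31 to 13.29 in the other downstream samples of that day. The part of those genes in the NDUFA4L2 value was not tested.

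No other member passed downstream on day 5. The ATP synthase genes found by the symbol rule were positive for all 7, with a median of 0.17. ATP5H and ATP5O, subunits that the rule did not reach, were negative there. They gave −0.14 ± 0.16 (adjusted p = 0.637) and −0.11 ± 0.16 (adjusted p = 0.718). ATP5A1 gave 0.43 ± 0.22 (adjusted p = 0.240), ATP5G1 0.18, ATP5G2 0.32, ATP5B 0.01 and COX6B 0.30, and none passed. All 3 complex II genes were negative, SDHD at −0.46 ± 0.14 (adjusted p = 0.0579), SDHB at −0.43 ± 0.16 (0.101) and SDHA at −0.24 (0.404). A second SDHD probe, with each probe fitted as a feature of its own, gave −0.52 ± 0.14 (adjusted p = 0.0409). Under median centring the complex II median was 0.42. NDUFS1 gave −0.07 and COX6A1 −0.26 (adjusted p = 0.149). All 4 pairs were lower for 9 members and higher for 2, beside 19.5% and 17.4% of features. The groups did not overlap for 1 member, COX7A1, which was lower, and for none that was higher, beside 4.39% and 3.28% of features. At an unadjusted p under 0.05 there were 7 members, beside 25.1% of features.

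By day 14 the downstream vein differed from the control past the threshold for 0 of the 28 genes in limma, beside 0.918% of all features (0.644% higher and 0.274% lower), and 3 members had an unadjusted p under 0.05, beside 15% of features. All 4 pairs were higher for 5 members and lower for 0, beside 10.4% and 8.51% of features. No member had groups that did not overlap, beside 1.13% of features higher and 0.793% lower. NDUFA4L2 stood at 10.04, 9.96, 10.97 and 10.63, a difference of 0.68 with an interval from −0.03 to 1.39 (adjusted p = 0.355). COX7A1 stood at 12.99, 14.22, 12.87 and 13.16, a difference of −0.56 with an interval from −1.21 to 0.10 (adjusted p = 0.418). The groups of both genes overlapped. The fat cell genes had a mean level of 13.92 in downstream replicate 2, where COX7A1 was highest, and of 12.85 in replicate 4, beside 8.71 in replicate 1 and a level between these in replicate 3; their part in the COX7A1 value was not tested. NDUFA4 gave −0.29, ATP5A1 0.24, ATP5G1 0.05, ATP5G2 0.29, ATP5B −0.10, COX6B 0.05, COX6A1 0.03, COX7A2 −0.06, NDUFS1 −0.05, SDHA 0.04, SDHB −0.08 and SDHD 0.15. The median reach of the 28 intervals was 0.34 to each side, so smaller differences would not be seen. The intervals are not adjusted for the number of features. Larger differences can therefore also miss the threshold, as those of NDUFA4L2 and COX7A1 did.

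**Figure D3:**
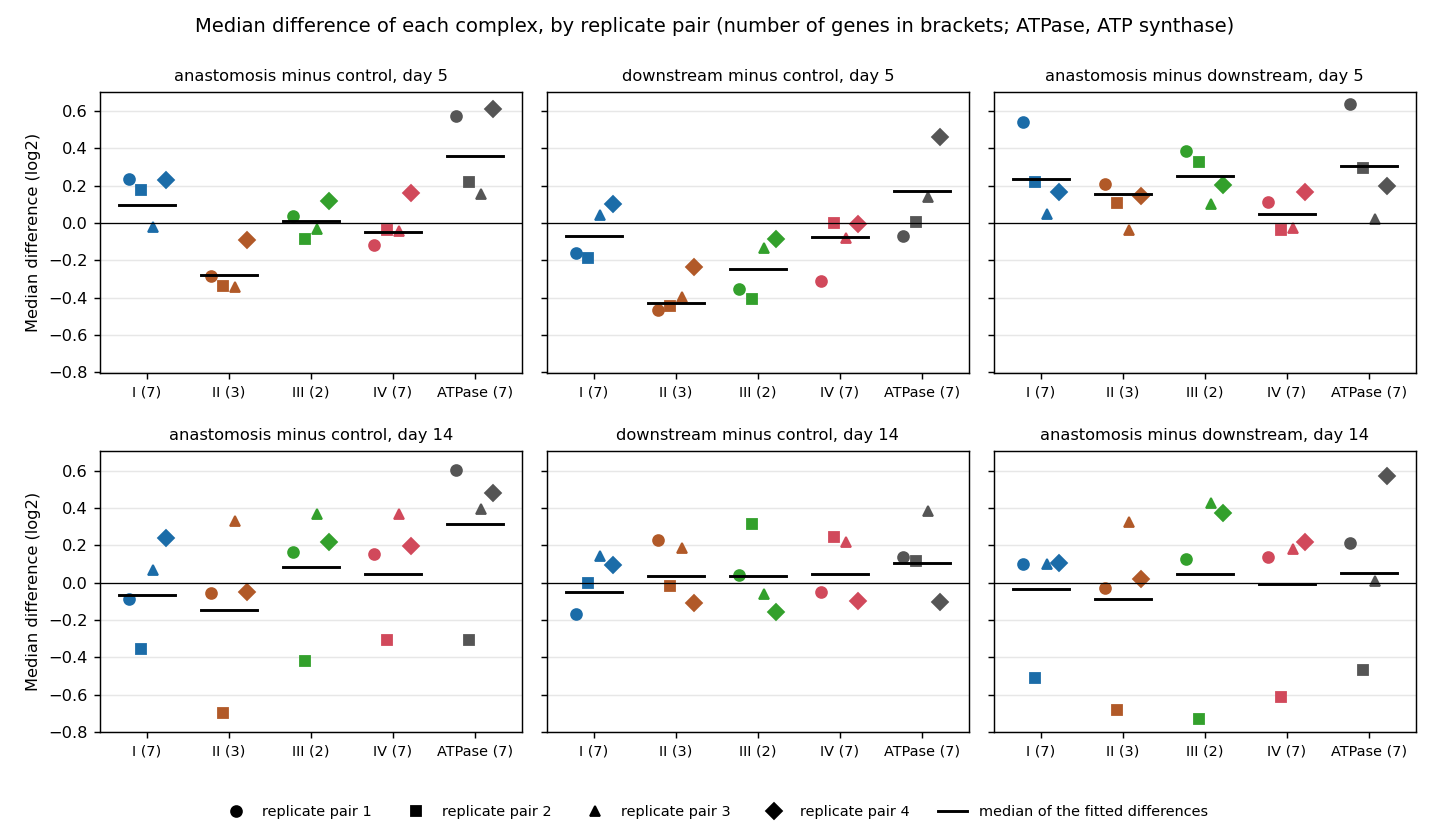
Median difference (vertical axis, log2) of the genes of each complex (horizontal axis, number of genes in brackets) in each of the 4 replicate pairs, 1 panel per comparison and day. Symbols mark pairs and bars the median of the fitted differences; at the anastomosis on day 5 the ATP synthase median is 0.36 and that of complex II −0.28 (0.72 under median centring), and for the anastomosis against the control on day 14 pair 2 lies lowest in each complex.

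The anastomosis and the downstream vein, both labelled with Cy5, were compared to ask whether the junction differed from the vein beyond it. Each anastomosis sample was scaled together with the control on its array, and each downstream sample with a green channel of no labelled sample. The site and this array partner cannot be told apart. On day 5, limma called 0 of the 28 genes and 0% of all features, with 6 members at an unadjusted p under 0.05, beside 10% of features. In this comparison 25 of the 28 differences were positive. The median of the 28 was 0.23, beside −0.005 over all features and 0.04 over named features. In all 4 pairs 14 members were higher and 1 lower, beside 13% and 10.9% of features. No member had groups that did not overlap, beside 1.25% of features higher and 0.817% lower. The medians of the pairs were 0.39, 0.21, 0.03 and 0.18, so replicate 3 showed nearly none of it. ATP5G1 gave 0.54 ± 0.16 (unadjusted p = 0.00412, adjusted p = 0.422), higher in 4 of 4 pairs. NDUFA4L2 gave 0.83 ± 0.33 (adjusted p = 0.458), with 2.56 and 0.99 in pairs 1 and 2 and −0.18 and −0.05 in pairs 3 and 4. COX7A1 gave −0.55 ± 0.31 (adjusted p = 0.562) and was lower in all 4 pairs. NDUFS1 gave 0.37, ATP5A1 0.40, NDUFA4 0.17 and COX7A2 0.23.

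The number of positive members on day 5 lay between 23 and 26 of 28 over 16 other settings of the processing, and their median between 0.10 and 0.38. On day 14 the anastomosis and the downstream vein gave 0 calls again in limma, 0% of all features, and 0 members at an unadjusted p under 0.05, beside 14.1% of features. The median was then 0.01, with 0.11, −0.53, 0.18 and 0.29 in the pairs. The members' direction on day 14 hung on the samples taken: over 18 settings between 4 and 25 of 28 were positive.

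From day 5 to day 14, no member passed at any site in limma, beside 0% of all features in the control and downstream and 0.00596% at the anastomosis. The 2 days of a number lay on different slides in replicates 1 to 3, where day and slide cannot be told apart. In replicate 4 they shared a slide. At an unadjusted p under 0.05 there were 0 members in the control, 4 at the anastomosis and 1 downstream, beside 1.91%, 8.28% and 4.48% of features. Those of the anastomosis were COX7A1 at 0.99 ± 0.31 (adjusted p = 0.424), NDUFA4L2 at −0.48 ± 0.15 (0.421), ATP5G1 at −0.45 ± 0.15 (0.437) and NDUFS1 at −0.54 ± 0.19 (0.456). For the first 3 of these the samples of the days did not overlap, beside 2.35% of features higher and 2.34% lower on day 14. Downstream it was COX7A1, at 0.86 ± 0.34 (adjusted p = 1), with 0.13, 2.32, 0.56 and 0.44 between samples of a number. Replicate 2, whose day 14 sample had the highest fat cell genes, gave the largest difference. Without that number the change was 0.38 ± 0.20 (unadjusted p = 0.104, adjusted p = 1), and without 1, 3 or 4 it was 1.11, 0.96 and 1.01. The part of the fat cell genes in this change was not tested. Set side by side by number, all 4 differences at the anastomosis were positive for 1 member, COX7A1, and negative for 7, beside 11.2% and 12.3% of features. Downstream all 4 were positive for 5 members, namely NDUFA4, SDHA, SDHB, SDHD and COX7A1, and negative for 0, beside 10.7% and 9.45% of features. In the control the counts were 0 and 2, beside 5.36% and 7.6%. With the number as a block no member passed either, and 6 members at the anastomosis, 2 downstream and 1 in the control had an unadjusted p under 0.05. COX7A1 at the anastomosis then gave 0.99 ± 0.23 (adjusted p = 0.183). The control changed by 0.36 ± 0.25 for COX7A1, with an interval from −0.21 to 0.92.

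Whether the difference between graft site and control itself changed with the day was tested as an interaction, in which a dye effect that is the same on both days cancels. For the anastomosis 0 of 28 members passed, with 0% of all features called and 1 member at an unadjusted p under 0.05, beside 8.32% of features. For the downstream vein 0 passed, with 0% called and 2 members unadjusted, beside 7.52%. COX7A1 gave 0.63 ± 0.43 (adjusted p = 0.773) at the anastomosis, with an interval from −0.29 to 1.56, so the smaller difference on day 14 is not shown to differ from that on day 5. SDHD gave 0.62 ± 0.20 downstream (adjusted p = 0.657). The median reach of these intervals was 0.48 to each side, and the widest was 1.01.

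The sign of a whole complex depended on how the arrays were scaled. Loess, the setting of the values above, removes any trend of the ratio with brightness, so a shift common to bright probes is removed with it. Median centring leaves the trend in, and then the 1678 features in the brightest 5% had a median difference of 0.97 at the anastomosis on day 5, beside 0.10 over all features. Under median centring the members' medians were 1.02 and 0.88 at the anastomosis on days 5 and 14 and 0.76 and 0.83 downstream, and 24, 23, 20 and 23 members passed, all of them higher. The all-feature median moved to 0.10, 0.16, 0.11 and 0.19 in those 4 comparisons, and 80.8%, 74.8%, 83.1% and 77.4% of all calls were then higher, beside 46.9%, 54.2%, 39.1% and 70.1% with loess. The 7 genes past the threshold at the anastomosis on day 5 kept similar ranks among the members. There, COX7A1 was the lowest of 28 under each of 6 scalings, between −1.78 and −1.71 below the members' median. NDUFA4L2 was the highest, between 1.12 and 1.44 above it, followed by ATP5A1, ATP5G1 and COX6B in the same order each time. NDUFA4 ranked between 2 and 4 from the lowest and SDHD between 3 and 5. COX7A1 remained negative under median centring, at −0.76 (adjusted p = 0.0615) at the anastomosis and −0.32 (adjusted p = 0.438) downstream on day 5.

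**Figure D4:**
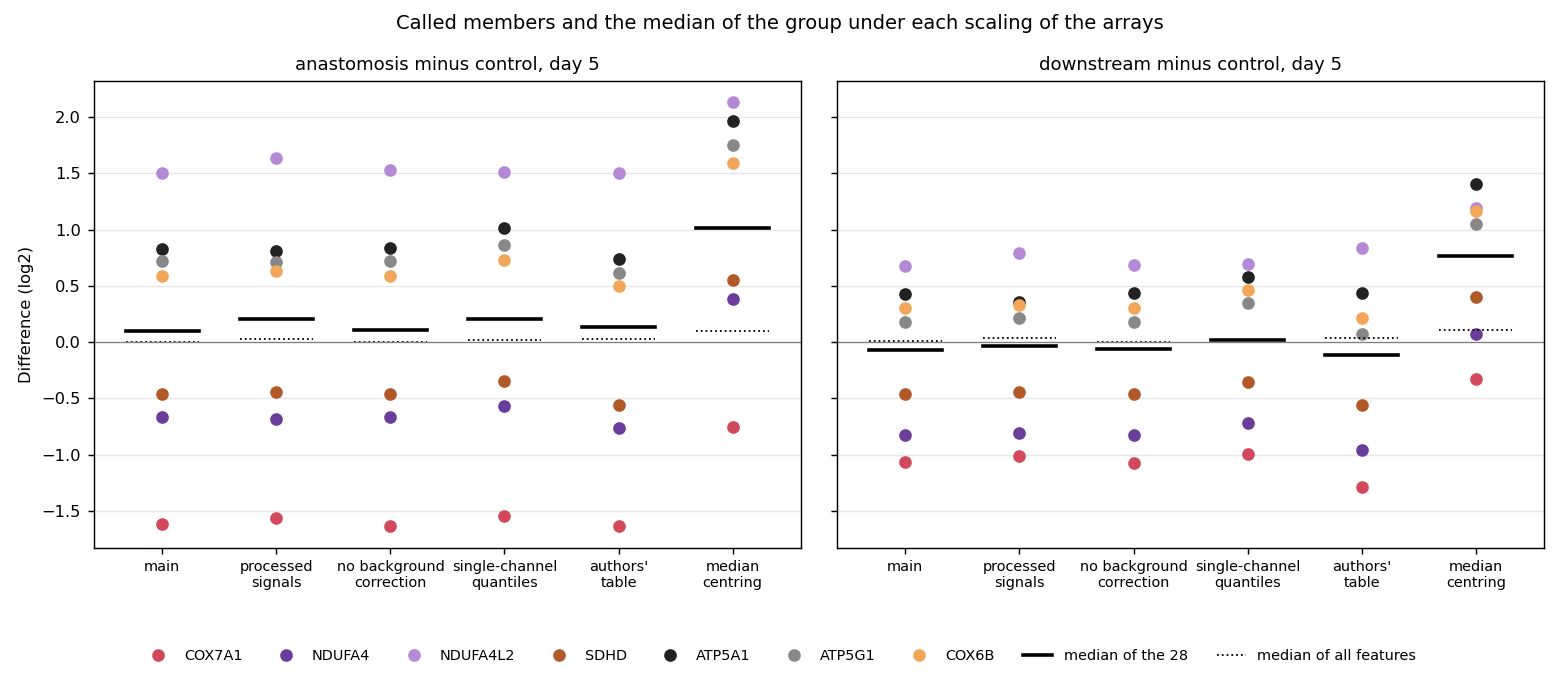
Day 5 differences from the control (vertical axis, log2) of the 7 genes past the threshold in any comparison, under 6 scalings of the arrays (horizontal axis), for the anastomosis (left) and the downstream vein (right). Solid bars are the median of the 28 genes and dotted bars that of all features; median centring lifts the members' median from 0.10 to 1.02 and turns NDUFA4 and SDHD positive, while COX7A1 stays lowest and, at the anastomosis, NDUFA4L2 highest.

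Other genes of the mitochondrion were counted from lists chosen with earlier results of these data known. The counts stand beside the background of each comparison: at the anastomosis 9.08% of all features were higher and 10.3% lower on day 5, with 29.7% of named features called, and 8.84% of all and 11.8% of named features were called on day 14. Downstream these shares were 8.22% and 11.8% on day 5 and 0.918% and 1.44% on day 14. Among 10 carriers measured, 3 were higher and 1 lower at the anastomosis on day 5. The adenine nucleotide carriers, which exchange ADP and ATP across the inner membrane, parted: SLC25A4, the heart and muscle form, gave −1.63 ± 0.34 (adjusted p = 0.00478), while SLC25A5 gave 1.12 ± 0.26 (adjusted p = 0.00796). VDAC1, a pore of the outer membrane, gave 0.88 ± 0.21 (adjusted p = 0.00958). Downstream on day 5 SLC25A4 gave −1.47 ± 0.34 (adjusted p = 0.0214) and SLC25A6, a further adenine nucleotide carrier, 0.59 ± 0.14 (adjusted p = 0.0276). On day 14 SLC25A6 was the 1 carrier past the threshold at the anastomosis, at 0.76 ± 0.16 (adjusted p = 0.0139, without control replicate 1, whose spot was an outlier), and downstream there was none.

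A further 12 subunit genes, which the files name in another way and the symbol rule did not reach, gave 1 higher and 1 lower at the anastomosis on day 5, with 10 of 12 positive and a median of 0.22. NDUFB2, an accessory subunit of complex I, gave 0.96 ± 0.15 (adjusted p = 0.00105) and NDUFA5, another, −0.54 ± 0.15 (adjusted p = 0.0175). NDUFB2 also passed at the anastomosis on day 14 (0.74 ± 0.15, adjusted p = 0.0105) and downstream on day 5 (0.61 ± 0.15, adjusted p = 0.0262), where NDUFA5 gave −0.62 ± 0.15 (adjusted p = 0.0217). Of 26 mitochondrial ribosome genes, whose products make the subunits encoded in the mitochondrial genome, 9 were higher and 1 lower at the anastomosis on day 5, beside 9.08% and 10.3% of all features. MRPS30 gave 1.00 ± 0.22 (adjusted p = 0.00582), MRPL35 0.97 ± 0.17 (0.00210) and MRPS33 −0.84 ± 0.15 (0.00219). On day 14 none of the 26 passed at either site.

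Of 13 citrate cycle genes 4 were higher and 0 lower at the anastomosis on day 5, where 19.4% of all and 29.7% of named features were called, led by DLAT, of the pyruvate dehydrogenase complex, at 1.06 ± 0.34 (adjusted p = 0.0428) and MDH2, mitochondrial malate dehydrogenase, at 0.92 ± 0.25 (0.0206). Of 7 glycolysis genes 3 were higher, with LDHA, a lactate dehydrogenase subunit, at 1.38 ± 0.44 (0.0384) and TPI1 at 1.04 ± 0.32 (0.0330). Of 9 fatty acid oxidation genes 1 was higher and 1 lower: CPT2 gave 0.98 ± 0.20 (0.00452), and CPT1B, the muscle form of the enzyme that feeds fatty acids into mitochondria, −1.09 ± 0.27 (0.0123). Of 4 assembly genes LRPPRC, which stabilises mitochondrial messenger RNA, gave 0.61 ± 0.20 (0.0401) and TMEM70, an ATP synthase assembly factor, −1.01 ± 0.26 (0.0149). On day 14 the anastomosis kept 1 call in fatty acid oxidation (CPT2, 1.1 ± 0.20, adjusted p = 0.00664) and 1 in assembly (ATPAF1, −0.56 ± 0.14, adjusted p = 0.0222), with 0 in the citrate cycle and glycolysis. Downstream on day 5 CPT2, TMEM70 and MRPS33 passed, at 0.73, −1.1 and −0.76, and on day 14 no gene of the pathway lists did. The 2 regulator genes measured passed in no comparison. None of the list genes past the threshold in a comparison with the control changed sign under 5 other scalings.

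On day 5, markers of other cell types also differed between the sites. Of 6 smooth muscle genes measured, 5 were lower at the anastomosis on day 5, with a median of −2.33, among them PLN, a calcium pump regulator, at −3.37 ± 0.66 (adjusted p = 0.00336) and CNN1, a thin filament protein, at −2.83 ± 0.72 (0.0134). Their mean level lay between 15 and 15.39 in the control samples, between 12.45 and 13.63 at the anastomosis and between 12.31 and 14.28 downstream. On day 14 the sample with the lowest smooth muscle mean at a site was not the one with the lowest COX7A1. The mean and the COX7A1 level were 12.66 and 13.83 in anastomosis replicate 3 and 12.81 and 14.22 in downstream replicate 2. In control replicate 2 they were 12.21 and 13.98. These samples had the highest fat cell gene means of their groups: 14.11, 13.92 and 14.52. Nor did the lowest of both coincide in the control or at the anastomosis on day 5. The highest of both did, in replicate 3 of each. There the mean and the COX7A1 level were 15.39 and 13.91 in the control and 13.63 and 12.14 at the anastomosis. On day 14 the highest of both coincided at no site. Downstream on day 5 both had the same order. In replicates 1 to 4 there, the means were 14.28, 12.31, 12.78 and 13.29 and the COX7A1 levels 12.86, 11.90, 12.31 and 12.72. Of 9 skeletal muscle genes measured, 4 were lower at the anastomosis on day 5, ACTA1 most at −2.03 ± 0.61 (0.0309) and PYGM next at −1.80 ± 0.58 (0.0411). The mean levels of the 9 lay between 7.43 and 8.01 in the control, 6.65 and 7.16 at the anastomosis and 6.80 and 7.59 downstream. Of 8 fat cell genes and 2 fibroblast genes none passed in any comparison, and no red blood cell gene could be tested. RGS5, which marks pericytes, was higher at the anastomosis by 2.28 ± 0.51 (0.00687), but it was the 1 called among 3 pericyte genes. HIGD1B went the other way, at −0.89 ± 0.35 (0.0949), and KCNJ8 gave 0.16 ± 0.27 (0.767). Of 5 macrophage genes 3 were higher, with MSR1, a scavenger receptor, at 2.50 ± 0.39 (0.00103) and AIF1 at 1.43 ± 0.43 (0.0293). Of 5 endothelial genes 2 were higher: KDR, a receptor for VEGF, at 2.13 ± 0.33 (0.000990) and CDH5, a junction protein, at 1.5 ± 0.29 (0.00326). VWF gave −0.45 ± 0.29 (0.338), PECAM1 0.19 and TEK 0.55, and these did not pass. All 4 cell cycle genes were higher, CCNB1 and CDK1, which drive entry into mitosis, most at 3.63 ± 0.56 (0.000992) and 3.30 ± 0.49 (0.000890). The part of these cell types in the values of the respiratory chain genes was not tested.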

How the data were processed

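Per the labels' protocols, a Qiagen RNeasy Micro kit gave the total RNA and an Agilent Quick Amp kit the 2 dyes. Per the file headers, Feature Extraction 10.5.1.1 read the 16 arrays. Linear intensity per spot and channel (mean foreground, median background) was taken from the deposited scanner files. The authors also deposited a table of log2 values, whose making and scale are not given in the sources used here; its column medians lay between 7.34 and 7.42, and its values correlated with those used here at 0.922 to 0.959 over features. On 8 arrays the green channel had no labelled sample and entered no group. It did enter the scaling of the downstream sample on the same array.

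Both channels were corrected with normexp (offset 50) and normalised by loess within and Aquantile between arrays in limma 3.58.1 (R 4.3.3); control and outlier spots had weight 0 and outlier spots were left out. A feature was tested where at least 4 of 24 samples lay well above background. The 6 comparisons of sites within a day and the 2 interactions used 1 fit with 8 blocks of replicate number within day (12 residual degrees of freedom); day changes used the 8 samples of a site. The numbers were used as pairs. Within a day, deviations of like-numbered samples from their group means correlated at 0.191 to 0.816 over 24 pairs. Each block lay on 1 of 7 slides, so this correlation cannot tell a pairing from a shared slide. Across days the labels tie no numbers; like-numbered samples of a site correlated at 0.0728 to 0.623, over 0.1 in 11 of 12 pairs, and day changes were fitted without the number. The scripts were tested on simulated data.

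The members and lists were chosen with earlier results of these data known. Named were, per comparison, the 5 largest differences past the threshold in each direction, the isoform pairs and catalytic subunits, and per list the 2 largest past the threshold each way, for cell type markers at the anastomosis on day 5. The 12 further subunits were collected after the files were read, and other genes given beside a result fall outside that rule. All p-values are two-sided. The design text calls the 4 experiments independent; p-values measure the spread between these samples. Alternatives were other background corrections and scalings, filters, probe rules, models and left-out samples. Of the members, 1 is counted but not reported here.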

Additional observations from a re-analysis of the deposited data

Results flagged for a closer look

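In 3 of 168 groups of 4 samples, 1 sample lay far from the other 3 (the gap to its neighbour, as a share of the group's range, exceeded Dixon's critical value); chance gives about 1 in 20 groups. ATP5B stood at 14.86 in control replicate 3 of day 5, the highest of its group. ATP5J2 stood at 13.57 in downstream replicate 1 of day 14, the lowest of its group. COX7A2 stood at 13.79 in control replicate 1 of day 14, the highest of its group. None of these 3 genes passed the threshold in any comparison.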

How the results depend on the processing

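Among the called members, median centring turned NDUFA4 to 0.386 at the anastomosis and 0.0761 downstream on day 5, and SDHD to 0.549 at the anastomosis on day 5. It called 24 members at the anastomosis on day 5, 23 on day 14, and 20 and 23 downstream. At the anastomosis on day 5, where 7 were called, single-channel quantiles called 11, replicates 1 and 2 alone 0, replicates 3 and 4 alone 4, the fit without the replicate block 3, the groups compared alone 13, and fits without 1 replicate 3 to 6. At the anastomosis on day 14, where 1 was called, a filter for signal in all samples called 2, replicates 1 and 2 alone 0, replicates 3 and 4 alone 4, no replicate block 0, the groups compared alone 0, fits without 1 replicate 0 to 5, and the fit without the anastomosis sample of replicate 3, chosen after seeing the data, 2. Downstream on day 5, where 2 were called, processed signals called 1, no filter 1, replicates 1 and 2 alone 0, no replicate block 0, the groups compared alone 4, and fits without 1 replicate 0 to 3. Downstream on day 14, where 0 were called, replicates 3 and 4 alone called 1. For the day change at the anastomosis, the authors' value table called 2. The causes were not tested, except that fits with fewer samples have fewer degrees of freedom. The other counts, 162 of 192 in all, stayed within 1.5 times. Of 162 settings for single called members, 107 kept the call, 52 lost it and 3 changed sign. Of 192 settings for medians, 187 stayed within the spread of the pairs. Slide could not be separated from the pairing, and Feature Extraction's protocol differed between replicates 1 and 2 and replicates 3 and 4. COX8H, near background, allows no statement on its change.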

Other observations

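The mitochondrial genome encodes further subunits of the same complexes, and 4 of its 13 genes for proteins were measured: ND1, ND4, ND5 and CYTB. None passed in any comparison. At the anastomosis on day 5 ND1 gave 0.35 ± 0.21 and ND5 −0.35 ± 0.31, and their median was −0.04. Downstream on day 14 all 4 were positive, with a median of 0.48, beside 0.03 for the 28 nuclear genes. At the anastomosis on day 14 their median was 0.20, and against the downstream vein of that day all 4 were negative, with a median of −0.35. These transcripts come from a common precursor, so their values are not independent of each other.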
